A study of Mus musculus with 10 samples.

Results

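The genes described here are 39 imprinted mouse genes that lie outside the *Dlk1* locus. They were taken as a named list whose rule uses no measured value, though it was chosen with earlier results of these data known. Of the 39, 38 were found among the 27998 genes of the E14Tg2a table and all 39 among the 32285 genes of the R1 table. The exception was *Peg13*, which only the R1 table lists. The list covers 19 imprinted loci, 10 of which hold 2 or more of the genes. By textbook knowledge 22 of the genes are expressed from the paternal copy, 9 from the maternal copy, and 8 from a copy that depends on the tissue.

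Genomic imprinting is the expression of a gene from a single parental copy, set by DNA methylation that the egg or the sperm leaves at an imprinting control region. The marks persist in the cells of the body and are erased in primordial germ cells (PGCs), the founders of eggs and sperm. Many imprinted genes act in the growth of the embryo and placenta: the paternally expressed *Igf2* is a growth factor, and the maternally expressed *Cdkn1c* and *Phlda2* restrain growth. UMI counts (unique molecular identifiers, one per captured transcript molecule) do not tell the parental copies apart, so each value below is the sum over both copies.

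Single-cell RNA-seq followed the in vitro route from mouse embryonic stem cells (ESC) to PGC-like cells (PGCLC). In the wild-type line E14Tg2a there was 1 library each of ESC kept in 2i medium, ESC kept in serum with LIF (S+L ESC), epiblast-like cells (EpiLC) after 1, 2 and 3 days (d1, d2, d3), epiblast stem cells (EpiSC), and embryoid bodies (EB) after 2 and 4 days. The other 2 libraries were d4 EB of the R1 line, from wild-type (WT) cells and from cells with catalytically dead MLL3 and MLL4 (dCD), enzymes that methylate histone H3 at lysine 4 of enhancers. The dCD cells are a mutant clonal line. With 1 library per condition, stage, genotype and library cannot be told apart, no test between conditions was possible, and the intervals given in parentheses after each value are 95% exact intervals that cover counting error only. The E14Tg2a and R1 libraries were made with different chemistries and their levels are not compared.

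There were 2782 cells of E14Tg2a and 3115 cells of R1, with medians of 21658 to 36750 UMIs per cell over the E14Tg2a libraries and of 13188 in WT and 11751 in dCD. Of the E14Tg2a barcodes, 8 occur in more than 1 library; no barcode is shared between WT and dCD. The authors listed 135 EB cells as PGCLC, 91 at d2 and 44 at d4, from the expression of PGC markers. The 6 PGC markers summed to 455 CPM (UMIs per 1000000 UMIs) in the listed d2 cells and 43.2 in the other d2 cells, and to 407 and 51.7 at d4. All comparisons of listed with other cells are therefore descriptions of cells that the transcriptome itself had sorted.

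Promoter sequence is given for 6 of the genes whose levels carry the results below, to set the paternally expressed *Mest*, *Nnat*, *Plagl1* and *Kcnq1ot1* beside the maternally expressed *Phlda2* and the tissue-dependent *Grb10*. Each run is 300 bases of RefSeq sequence, from 250 bases before to 50 after an annotated start, read 5′ to 3′ on the gene's strand (GRCm38.p6). They lie at chr6:30737800-30738099 (plus strand) for *Mest*, chr2:157559828-157560127 (plus) for *Nnat*, chr10:13090582-13090881 (plus) for *Plagl1*, chr11:12037371-12037670 (minus) for *Grb10*, chr7:143502475-143502774 (minus) for *Phlda2* and chr7:143296498-143296797 (minus) for *Kcnq1ot1*. Capitals mark TGCCGC or its other strand GCGGCA, the letters that the imprint-protecting zinc finger protein ZFP57 binds when their CpG is methylated.
Mest: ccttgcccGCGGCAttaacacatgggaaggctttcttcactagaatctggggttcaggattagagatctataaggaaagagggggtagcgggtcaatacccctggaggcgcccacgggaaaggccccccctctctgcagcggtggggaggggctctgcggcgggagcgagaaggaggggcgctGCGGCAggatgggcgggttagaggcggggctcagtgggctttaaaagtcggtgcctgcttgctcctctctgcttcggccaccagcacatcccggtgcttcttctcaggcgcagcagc
Nnat: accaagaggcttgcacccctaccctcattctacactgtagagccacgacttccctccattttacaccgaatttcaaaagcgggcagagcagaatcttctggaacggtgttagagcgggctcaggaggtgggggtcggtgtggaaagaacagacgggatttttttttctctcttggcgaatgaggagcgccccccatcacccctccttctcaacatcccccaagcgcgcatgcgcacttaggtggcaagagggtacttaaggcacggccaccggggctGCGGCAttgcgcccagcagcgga
Plagl1: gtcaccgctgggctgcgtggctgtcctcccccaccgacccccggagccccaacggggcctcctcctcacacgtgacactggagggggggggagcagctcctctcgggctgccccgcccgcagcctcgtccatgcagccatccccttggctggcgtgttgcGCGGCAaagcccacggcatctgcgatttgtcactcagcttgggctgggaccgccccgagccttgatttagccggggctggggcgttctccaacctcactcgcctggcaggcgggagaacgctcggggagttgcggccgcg
Grb10: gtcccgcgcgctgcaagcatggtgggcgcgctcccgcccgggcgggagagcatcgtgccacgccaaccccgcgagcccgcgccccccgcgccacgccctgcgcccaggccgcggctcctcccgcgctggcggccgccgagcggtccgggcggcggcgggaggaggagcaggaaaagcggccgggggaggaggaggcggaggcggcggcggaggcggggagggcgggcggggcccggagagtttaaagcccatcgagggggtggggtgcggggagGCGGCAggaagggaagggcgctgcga
Phlda2: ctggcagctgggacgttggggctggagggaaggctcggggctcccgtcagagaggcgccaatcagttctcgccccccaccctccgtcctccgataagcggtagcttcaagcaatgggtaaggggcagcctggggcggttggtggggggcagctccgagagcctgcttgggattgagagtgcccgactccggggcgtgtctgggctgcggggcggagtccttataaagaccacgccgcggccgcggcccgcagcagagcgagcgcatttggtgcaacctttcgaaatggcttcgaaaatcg
Kcnq1ot1: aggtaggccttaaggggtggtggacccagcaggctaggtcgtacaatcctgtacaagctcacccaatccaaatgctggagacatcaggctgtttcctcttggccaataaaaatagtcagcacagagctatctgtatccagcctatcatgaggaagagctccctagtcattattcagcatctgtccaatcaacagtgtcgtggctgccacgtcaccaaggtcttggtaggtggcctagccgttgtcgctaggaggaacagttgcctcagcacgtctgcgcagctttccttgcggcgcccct
The *Mest* window holds the hexamer 2 times, those of *Nnat*, *Plagl1* and *Grb10* 1 time each, and those of *Phlda2* and *Kcnq1ot1* do not hold these letters. RefSeq has further windows of *Mest* and *Grb10*: another of *Mest* overlaps the one shown and holds the hexamer 2 times, and the last of *Mest* and the other of *Grb10* hold it 0 times. RefSeq windows of 32 of the 39 genes were used, 47 in all with repeats removed, and 12 of these (25.5%) hold the hexamer on either strand. Over all 32851 windows of that length, from which repeats were not removed, the share was 11.6%. The windows of the imprinted genes held a median of 16 CpG, against 7 over all windows. No window was used for *Peg10*, *Sgce*, *Impact*, *Trappc9*, *Peg13*, *H19* and *Cdkn1c*. A match is a description of letters and does not show that the protein binds.

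The summed level of the imprinted genes in E14Tg2a was lowest in 2i ESC and highest in the EB cells outside the listed PGCLC. The sum over the members was 953 CPM (933 to 974) in 2i ESC, 1145 CPM (1124 to 1166) in S+L ESC and 2386 CPM (2359 to 2413) in EpiSC. Over the 3 days of EpiLC it was 1328, then 1559.6, then 1567 CPM. In the EB cells not listed as PGCLC it was 5059.8 CPM (5019 to 5101) at d2 and 10519 CPM (10450.1 to 10588) at d4. The listed PGCLC stood far below their neighbours, at 2028 CPM (1977 to 2080.1) at d2 and 1141 CPM (1077 to 1207) at d4, the d4 value being close to that of S+L ESC. The fall from the other d4 EB cells to the d4 PGCLC was seen for both copies: in the other d4 EB cells the paternal sum was 4731 and the maternal sum 3824 CPM, against 502 and 314 in the listed d4 PGCLC. In the pluripotent cells the order differed by copy: the maternal sum was lowest in d1 EpiLC, at 219 CPM, and the paternal sum was 703, 645 and 532 CPM over the EpiLC days. In R1 the sums were 8966 CPM (8925 to 9007) in WT and 3648 CPM (3624 to 3673) in dCD.

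**Figure D1:**
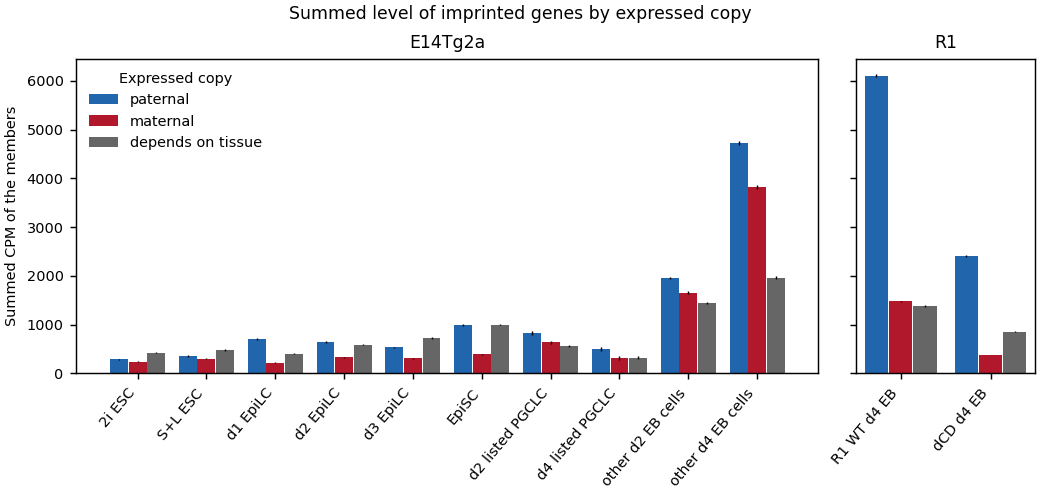
Summed CPM of the imprinted genes in each group of cells, as bars split by the copy that is expressed (paternal, maternal, depends on tissue), with black marks for the 95% counting interval. The EB cells outside the listed PGCLC carry the highest sums in E14Tg2a, and dCD lies below WT in R1.

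**Figure D2:**
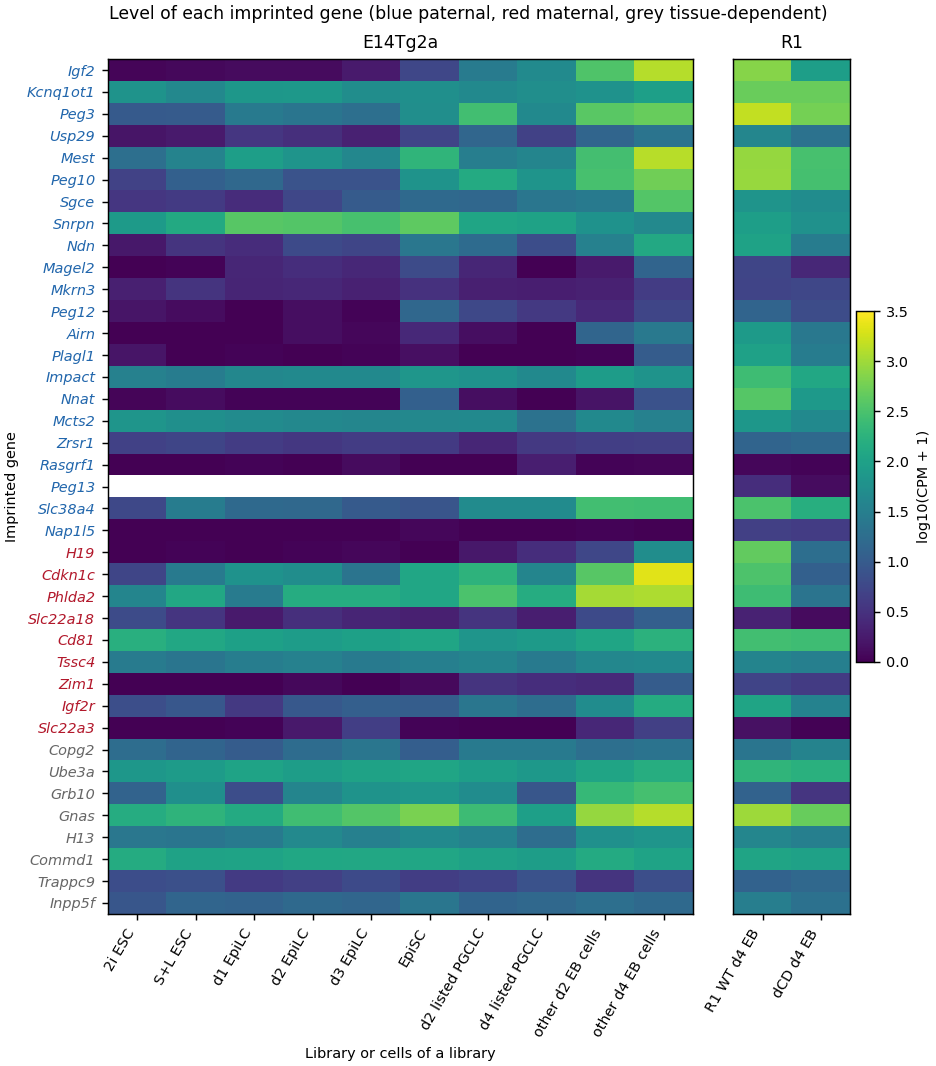
Level of each imprinted gene (rows) in each group of cells (columns), as log10(CPM + 1) on the colour scale, with the gene names coloured by expressed copy and white where a gene is not in the table. *H19*, *Igf2*, *Plagl1*, *Airn* and *Nnat* are at or below 1.57 CPM in ESC, EpiLC and EpiSC apart from *Nnat* and *Igf2* in EpiSC, while *Snrpn*, *Kcnq1ot1*, *Cd81*, *Commd1* and *Ube3a* are present throughout.

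A first question was how the genes changed on leaving naive pluripotency. A gene was compared where it had at least 10 UMIs in both groups together, and called higher or lower where log2((CPM + 1)/(CPM + 1)) was at least 1 or at most -1, a 2-fold difference. From 2i ESC to d2 EpiLC, 28 of the genes could be compared and 9 were higher and 1 lower. Over all genes 16.0% were higher and 6.49% lower. The median log2 ratio was 0.64 for the imprinted genes and 0.27 for all genes.

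*Cdkn1c*, which encodes the cyclin-dependent kinase inhibitor p57, was 11.6-fold (8.32 to 16.5) higher in d2 EpiLC, from 4.34 to 50.2 CPM. *Snrpn*, which encodes a splicing protein, was 4.45-fold (4.10 to 4.82) higher, from 81 to 360.0 CPM. *Phlda2*, a pleckstrin-homology protein that restrains placental growth, was 3.79-fold (3.37 to 4.27) higher, from 38.6 to 146 CPM. *Ndn*, the MAGE-family protein necdin, was 7.59-fold (3.28 to 21.5) higher but from a low level, from 0.685 to 5.20 CPM. *Mest*, a hydrolase-like protein of mesoderm, was 3.47-fold (2.91 to 4.14) higher, from 18.2 to 62.9 CPM. *Grb10*, an adaptor that dampens insulin receptor signalling, was 3.16-fold (2.55 to 3.95) higher, from 12 to 37.9 CPM. The amino acid transporter *Slc38a4* went from 4.80 to 14.2 CPM, 2.95-fold (2.09 to 4.26) higher, and the zinc finger gene *Peg3* from 8.91 to 21.7 CPM, 2.44-fold (1.88 to 3.19) higher. *Magel2*, a ubiquitin ligase partner, had no UMI in 2i ESC and 1.88 CPM in d2 EpiLC. The transporter *Slc22a18* was the 1 gene that was lower, by 2.66-fold (1.57 to 4.65), from 5.25 to 1.97 CPM.

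The levels did not all move in 1 direction within the 3 EpiLC days. *Cdkn1c* was at 60.3, 50.2 and 21.5 CPM in d1, d2 and d3 EpiLC. *Phlda2* was at 27.9, 146 and 148 CPM, below its 2i ESC level at d1. *Grb10* followed a like course, with 12 CPM in 2i ESC, 5.82 at d1, 37.9 at d2 and 61.1 at d3. *Mest* was highest of the 3 days at d1, with 91 CPM, and lowest at d3, with 40 CPM.

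S+L ESC, the less homogeneous ESC state, differed from 2i ESC at 6 of the 27 genes that could be compared, all higher, where over all genes 9.73% were higher and 2.41% lower. The median log2 ratio was 0.19, against 0.10 over all genes. *Slc38a4* was 5.98-fold (4.32 to 8.48) higher, from 4.80 to 28.7 CPM. *Cdkn1c* was 5.93-fold (4.21 to 8.57) higher, from 4.34 to 25.7 CPM, and *Grb10* 4.60-fold (3.73 to 5.72) higher, from 12 to 55.1 CPM. *Phlda2* went from 38.6 to 123 CPM, 3.18-fold (2.81 to 3.59) higher, and *Peg10*, a gene derived from a retrotransposon and needed for the placenta, from 3.88 to 11 CPM, 2.83-fold (1.91 to 4.29) higher. *Ndn* was at 0.685 CPM in 2i ESC and 2.38 in S+L ESC. S+L ESC thus lay above 2i ESC at several of the genes that were also higher in d2 EpiLC, and both comparisons use the same 2i ESC library.

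EpiSC, which have little competence to form PGCLC, were set against d2 EpiLC, which have it. Of 32 genes 11 were higher in EpiSC and none lower (over all genes 8.47% and 6.13%), with a median log2 ratio of 0.48 against 0.09. Among the paternally expressed genes 9 of 18 were higher. The 6 primitive streak or nascent mesoderm markers summed to 42.2 CPM in d2 EpiLC and 423 in EpiSC and the 11 extraembryonic ectoderm markers to 13.9 and 81.9, and their part in the differences was not tested. *Nnat*, which encodes the small membrane proteolipid neuronatin, was 122-fold (21.6 to 4868) higher, with 1 UMI in d2 EpiLC and 11 CPM in EpiSC. *Peg12*, a gene without introns at the *Snrpn* locus, was 38.7-fold (14.8 to 144) higher, from 0.359 to 13.9 CPM. *Igf2* was 17.2-fold (5.60 to 85.8) higher, from 0.269 to 4.62 CPM, and *Peg10* 9.20-fold (7.27 to 11.8) higher, from 6.81 to 62.7 CPM. 3 further genes of the *Snrpn* and *Peg10* loci were higher: *Ndn* from 5.20 to 23.7 CPM, 4.57-fold (3.44 to 6.16), *Magel2* from 1.88 to 5.25 CPM, 2.79-fold (1.69 to 4.80), and *Sgce*, the sarcoglycan gene next to *Peg10*, from 4.48 to 14.7 CPM, 3.27-fold (2.38 to 4.56). *Mest* was 3.06-fold (2.81 to 3.33) higher, from 62.9 to 192 CPM. *Gnas*, which encodes the G protein alpha subunit that raises cyclic AMP, was 2.37-fold (2.27 to 2.47) higher, from 264 to 625 CPM. *Peg3* was 2.42-fold (2.08 to 2.81) higher, from 21.7 to 52.4 CPM, and *Cdkn1c* 2.34-fold (2.12 to 2.58) higher, from 50.2 to 118 CPM. *H19*, the long noncoding RNA beside *Igf2*, had no UMI in 12760723 UMIs of EpiSC, which allows up to 0.235 CPM.

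The EB cells not listed as PGCLC were compared with the d2 EpiLC from which EB are made. The other d2 EB cells had 17 of 34 genes higher and 1 lower than d2 EpiLC, where over all genes 14.5% were higher and 11.6% lower, and the median log2 ratio was 0.97 against 0.06. *Igf2* was 1279-fold (437 to 6203) higher, from 0.269 to 344 CPM, with 3 UMIs in the EpiLC. The neighbouring *H19* had 1 UMI in the EpiLC and 4.61 CPM (3.46 to 6.01) in the other d2 EB cells, 51.4-fold (8.84 to 2068) higher. *Airn*, the noncoding RNA that runs antisense to *Igf2r*, was 35.9-fold (13.8 to 134) higher, from 0.359 to 12.9 CPM, and *Igf2r*, the receptor that carries IGF2 to the lysosome, 6.01-fold (4.82 to 7.58) higher, from 8.25 to 49.6 CPM. *Peg10* went from 6.81 to 300.4 CPM, 44.1-fold (35.1 to 56.1) higher, *Slc38a4* from 14.2 to 275 CPM, 19.4-fold (16.6 to 23), and *Peg3* from 21.7 to 404 CPM, 18.6-fold (16.3 to 21.3). The growth-restraining genes of the *Kcnq1* locus moved in the same direction: *Cdkn1c* was 7.73-fold (7.08 to 8.46) higher, from 50.2 to 388 CPM, and *Phlda2* 7.21-fold (6.85 to 7.60) higher, from 146 to 1054 CPM. *Grb10* was 5.84-fold (5.27 to 6.49) and *Ndn* 6.35-fold (4.81 to 8.52) higher, at 221 and 33 CPM. *Snrpn* was the 1 gene that was lower, by 5.99-fold (5.53 to 6.50), from 360.0 to 60.1 CPM. The other genes past 2-fold were *Sgce*, *Usp29* (a ubiquitin protease of the *Peg3* locus), *Mest*, *Gnas*, *Zim1* (a zinc finger gene of the same locus) and *Slc22a18*, with log2 ratios between 1.02 and 2.34.

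Between d2 and d4 the other EB cells had 13 of 36 genes higher and none lower (10.6% and 4.17% of all genes), with a median log2 ratio of 0.78 against 0.12. *Plagl1*, a zinc finger transcription factor that acts on other imprinted genes, went from 1 UMI at d2 to 9.36 CPM (7.42 to 11.6) at d4, 109.6-fold (19.1 to 4384) higher. *Sgce* was 13.8-fold (12.2 to 15.5) higher, from 26.7 to 367 CPM, while its neighbour *Peg10* went from 300.4 to 558 CPM, a log2 ratio of 0.89. *H19* was 11.1-fold (8.38 to 15.1) higher, from 4.61 to 51.4 CPM, and *Igf2* 3.69-fold (3.56 to 3.83) higher, from 344 to 1269 CPM. *Cdkn1c* was 5.70-fold (5.52 to 5.89) higher, from 388 to 2213 CPM, while *Phlda2* was at 1054 and 1172 CPM. *Mest* was 4.69-fold (4.51 to 4.87) higher, from 284 to 1334 CPM. *Magel2* and *Ndn* were 16-fold (8.11 to 35.9) and 3.95-fold (3.52 to 4.45) higher, and *Peg12*, also of the *Snrpn* locus, 2.89-fold (1.61 to 5.39). *Nnat* was 12.8-fold (5.52 to 36.3) higher, *Zim1* 5.91-fold (3.56 to 10.3) and *Igf2r* 2.84-fold (2.57 to 3.14). *Trappc9*, a vesicle transport gene, passed at a log2 ratio of 1.04, from 2.39 to 5.97 CPM. Other EB cells hold several cell types in shares that may differ between the days, and fewer expressing cells and less RNA per cell cannot be told apart in these sums.

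The listed PGCLC were next compared with the other cells of the same EB library. At d2, 13 of 34 genes were lower in PGCLC and 1 higher, where over all genes 10.3% were lower and 6.06% higher, and the median log2 ratio was -0.72 against -0.11. Maternally expressed genes were lower at 5 of 9, paternally expressed genes at 6 of 17. *Igf2* was 12.5-fold (9.99 to 15.7) lower, at 27.6 against 344 CPM, and *H19* 6.76-fold (1.78 to 57.2) lower, at 0.682 against 4.61 CPM with 2 UMIs in the PGCLC. *Airn* had 1 UMI in the PGCLC and 12.9 CPM (10.9 to 15.1) in the other cells, a ratio of 37.8-fold (6.68 to 1503). *Igf2r* was 2.20-fold (1.71 to 2.89) lower, at 22.5 against 49.6 CPM. *Mest* was 9.38-fold (7.60 to 11.7) lower, at 30.3 against 284 CPM, and *Slc38a4* 5.73-fold (4.84 to 6.83) lower, at 48.1 against 275 CPM. The signalling genes *Grb10* and *Gnas* were 4.54-fold (3.84 to 5.41) and 3.59-fold (3.33 to 3.88) lower, at 48.8 and 247 CPM in PGCLC. In the *Kcnq1* locus *Phlda2* was 3.26-fold (3.05 to 3.49) lower, at 323 against 1054 CPM, and *Cdkn1c* 2.14-fold (1.96 to 2.35) lower, at 181 against 388 CPM. *Peg10* was 2.20-fold (1.99 to 2.45) lower and *Ndn* 2.11-fold (1.55 to 2.93) lower. *Slc22a3*, an organic cation transporter of the *Igf2r* locus, had no UMI in the PGCLC and 1.45 CPM in the other cells, at least 1.42-fold lower with a floor of 3 UMIs, so its call rests on the added 1 CPM. With that gene at its bound the median was -0.61. *Peg12* was the 1 gene that was higher, at 4.77 against 1.54 CPM, a log2 ratio of 1.19 that rests on few UMIs. Of 9 extraembryonic mesoderm markers 8 had UMIs in the d2 PGCLC, with a sum of 121 CPM against 1199 in the other d2 cells, and the part of such cells in the differences was not tested.

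At d4, 25 of 36 genes were lower in the listed PGCLC and 1 higher. Over all genes 31.3% were lower and 8.64% higher, with a median log2 ratio of -0.46; that of the imprinted genes was -2.33. By expressed copy 8 of 9 maternal, 13 of 19 paternal and 4 of 8 tissue-dependent genes were lower. *Cdkn1c* was 58.3-fold (42.8 to 81.7) lower, at 37.9 against 2213 CPM, and *Igf2* 27.3-fold (20.6 to 36.9) lower, at 46.5 against 1269 CPM. *H19* had 2 UMIs in the PGCLC and was 27.1-fold (7.45 to 224) lower, at 1.90 against 51.4 CPM. *Grb10* was 38.6-fold (19.5 to 89.4) lower, at 7.59 against 292 CPM, and *Mest* 35.2-fold (25.8 to 49.2) lower, at 37.9 against 1334 CPM. Several genes had no UMI in the 1054626 UMIs of the PGCLC, so only a bound can be given, with a floor of 3 UMIs. *Airn* was at least 8.76-fold lower than its 24.9 CPM in the other cells, *Magel2* at least 4.32-fold and *Plagl1* at least 3.29-fold. *Nnat* and *Slc22a3*, also without a UMI, were at least 2.30-fold and 1.27-fold lower. With these 5 genes at their bounds the median log2 ratio was -1.88, and *Slc22a3* did not reach 2-fold. *Ndn* was 22.9-fold (10.5 to 62.7) lower, at 5.69 against 131 CPM, and *Sgce* 16.1-fold (10.8 to 25.2) lower, at 22.8 against 367 CPM. *Gnas* was 13.9-fold (11.4 to 17.1) lower, at 93.9 against 1306 CPM, and *Peg3* 10.9-fold (8.22 to 14.9) lower, at 44.6 against 488 CPM. The other genes past 2-fold in this direction were *Peg10*, *Phlda2*, *Igf2r*, *Nnat*, *Slc22a18*, *Slc38a4*, *Usp29*, *Slc22a3*, *H13*, *Zim1*, *Cd81*, *Mkrn3* and *Ube3a*, with log2 ratios between -3.11 and -1.05. *Snrpn* went the other way, at 103 against 42.8 CPM, a log2 ratio of 1.25. Beside these values stand those of the cell types around the PGCLC: 9 extraembryonic mesoderm markers summed to 749 CPM in the other d4 cells and 26.5 in the listed ones, where 7 had UMIs, 11 extraembryonic ectoderm markers to 1023 and 94.8, and 7 endothelial markers to 267 and 56.9. The part of these cell types in the differences was not tested.

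**Figure D3:**
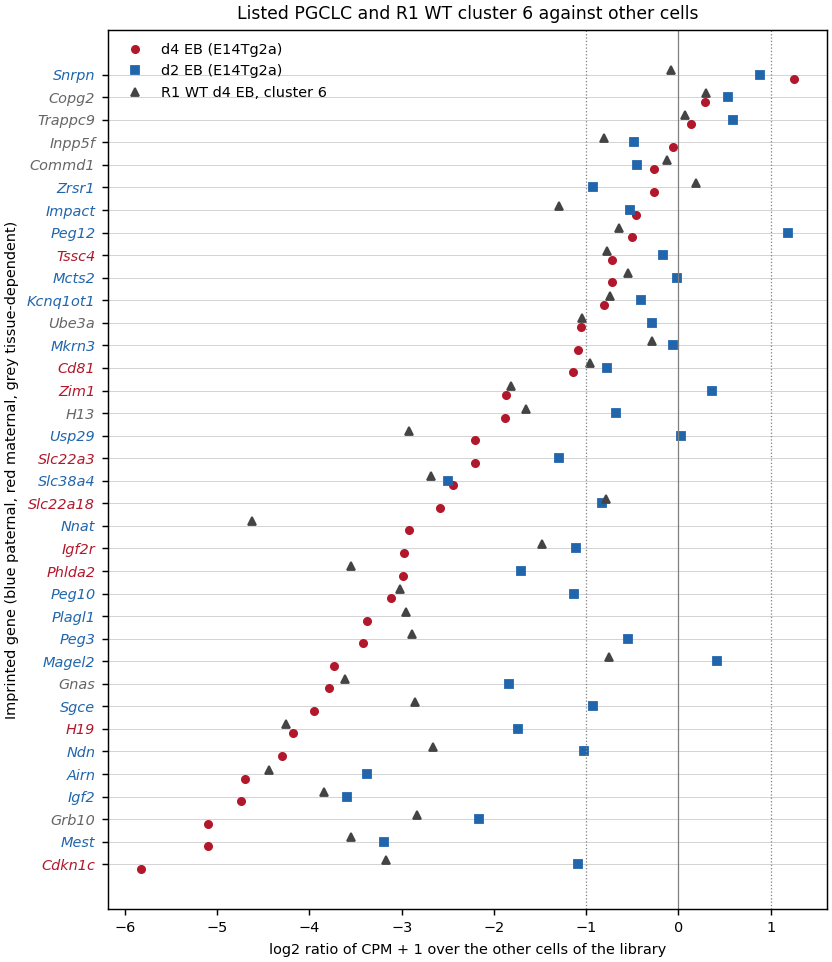
Log2 ratio of CPM + 1 for each imprinted gene that could be compared, between listed PGCLC and the other cells of the same EB at d4 (circles) and d2 (squares), and between the WT cells of R1 cluster 6 and the other WT cells (triangles). Dotted lines mark a 2-fold difference; *Cdkn1c* has the lowest d4 value and *Snrpn* the highest.

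The listed d2 PGCLC were also set against d2 EpiLC. Of 30 genes 11 were higher in the listed d2 PGCLC than in d2 EpiLC and 2 lower, where over all genes 9.13% were higher and 11.3% lower (medians 0.16 and -0.05). *Igf2* was 103-fold (33.9 to 508) higher, from 0.269 to 27.6 CPM, so that PGCLC lay above EpiLC and below the other EB cells. The 9 extraembryonic mesoderm markers summed to 2.33 CPM in d2 EpiLC and 121 in the listed d2 PGCLC, 6 of which fell into the *Pitx1* cluster of the d2 EB, and their part was not tested. *Peg10* was 20-fold (15.6 to 25.9) higher, from 6.81 to 136 CPM. The *Peg3* locus showed the same course, with *Peg3* 12.7-fold (11 to 14.7) higher, from 21.7 to 275 CPM, and *Usp29* 6.74-fold (3.90 to 11.9) higher, from 1.97 to 13.3 CPM. *Cdkn1c* was 3.61-fold (3.20 to 4.08) and *Phlda2* 2.21-fold (2.04 to 2.4) higher. *Slc38a4* was 3.39-fold (2.69 to 4.29), *Sgce* 3.04-fold (1.96 to 4.71), *Ndn* 3.02-fold (2.00 to 4.52) and *Igf2r* 2.73-fold (1.96 to 3.78) higher. *Peg12* was higher as well, from 0.359 to 4.77 CPM. *Snrpn* and *Mest* were lower, by 3.22-fold (2.88 to 3.61) and 2.07-fold (1.66 to 2.62), *Mest* going from 62.9 to 30.3 CPM while it was higher in the other EB cells. The same d2 EpiLC library serves here and in the comparisons with 2i ESC, EpiSC and the other d2 EB cells, and the other EB cells serve in several comparisons too, so these are not independent.

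Between d2 and d4 the listed PGCLC had 9 of 26 genes lower and none higher (12.5% and 5.98% of all genes, medians -0.39 and -0.17). *Peg3* was 6.18-fold (4.60 to 8.48) lower, from 275 to 44.6 CPM. *Grb10* was 6.43-fold (3.18 to 15.2) lower, from 48.8 to 7.59 CPM, and *Cdkn1c* 4.78-fold (3.47 to 6.77) lower, from 181 to 37.9 CPM. *Gnas* went from 247 to 93.9 CPM, 2.63-fold (2.13 to 3.28) lower, and *Ndn* from 15.7 to 5.69 CPM, 2.76-fold (1.17 to 7.90) lower. *Phlda2*, *Peg10* and *Mcts2*, an intronless copy inside *H13*, were 2.20-fold (1.85 to 2.62), 2.15-fold (1.65 to 2.82) and 2.24-fold (1.41 to 3.74) lower, and *Usp29* had a log2 ratio of -1.58. The other EB cells had moved up at *Ndn* and *Cdkn1c* over the same days. *Igf2* in PGCLC was at 27.6 CPM (21.9 to 34.3) at d2 and 46.5 CPM (34.4 to 61.4) at d4, and its log2 ratio of 0.73 did not reach 2-fold.

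The d4 EB were also grouped into 4 clusters from genes other than the members. The cluster led by *Ptn*, *Pitx1* and *Col3a1* (253 cells) held the highest *H19*, *Sgce*, *Plagl1* and *Grb10*, at 75.9, 560.5, 14.8 and 383 CPM. *Sgce* was no higher than 52.8 CPM in any of the other clusters. The cluster led by *Rhox6*, *Rhox9* and *Krt7* (39 cells) held the highest *Phlda2*, at 1858 CPM, and the highest *Peg10*, at 1091 CPM. The cluster led by the endothelial genes *Cldn5* and *Emcn* (27 cells) had the highest *Mest*, at 3168 CPM, and the lowest *Phlda2*, at 17.5 CPM. *Igf2* was alike in these 3 clusters, between 1278 and 1300.0 CPM. All 44 listed PGCLC fell into the remaining cluster of 49 cells, which also held 5 cells not listed and was led by globin genes. The erythroid markers summed to 9196 CPM in that cluster and to 25.6 CPM in the listed d4 PGCLC. *Igf2* was at 102 CPM in the cluster, a level that includes the cells not listed. Of 36 genes 23 had their lowest level in that cluster, where 43.6% of all genes did. At d2 it was 24 of 34 in the cluster of 97 cells that held 85 of the 91 listed PGCLC, where 41.8% of all genes did.

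In R1, mutant d4 EB were compared with WT d4 EB to ask how the members fare without MLL3 and MLL4 catalysis. In dCD 18 of 38 genes were lower and none higher, where over all genes 3.68% were lower and 6.31% higher. The median log2 ratio was -0.96 for the members and 0.03 for all genes. By copy, 13 of 21 paternal, 4 of 9 maternal and 1 of 8 tissue-dependent genes were lower. Cell makeup differed between the libraries at the same time: the 9 extraembryonic mesoderm markers summed to 1430 CPM in WT and 378 in dCD, and the 5 pluripotency markers to 506 and 1164. Their part in the differences was not tested. The log2 ratios were also averaged with equal weight over the 2 clusters that hold at least 50 cells of each line. By that mean 7 of the 38 genes were lower, and the share of all genes was not computed for it. Within the 2 clusters 4.84% and 3.31% of all genes were lower.

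The maternally expressed *Cdkn1c*, *H19* and *Phlda2* differed most. *Cdkn1c* was 31.5-fold (27.7 to 35.9) lower, at 336 CPM (328 to 344) in WT and 10.7 CPM (9.36 to 12.1) in dCD, and *Phlda2* 12.2-fold (11.1 to 13.4) lower, at 260.0 CPM (253 to 267) and 21.3 CPM (19.5 to 23.3). *H19* was 26.4-fold (23.9 to 29.3) lower, at 453 CPM (444 to 463) and 17.2 CPM (15.5 to 19), and its neighbour *Igf2* 8.06-fold (7.70 to 8.44) lower, at 740.1 CPM (728 to 752) and 91.8 CPM (87.9 to 95.8). Oppositely imprinted neighbours thus shared a direction. *Igf2r* was 3.15-fold (2.91 to 3.42) and its antisense RNA *Airn* 3.40-fold (3.09 to 3.76) lower, at 35 and 23.8 CPM in dCD. *Nnat* was 4.98-fold (4.73 to 5.25) lower, at 75.9 against 378 CPM, and *Grb10* 4.73-fold (3.52 to 6.44) lower, at 2.45 against 11.6 CPM. Of the other paternally expressed genes, *Ndn* was 3.60-fold (3.30 to 3.94) lower, *Plagl1* 3.51-fold (3.21 to 3.84), *Peg10* 3.03-fold (2.95 to 3.12) and *Mest* 2.95-fold (2.87 to 3.04). *Plagl1* went from 99.1 to 28.3 CPM and *Mest* from 892 to 302, and for both the mean over shared clusters was higher in dCD, at log2 ratios of 0.79 and 0.62. *Peg3* was at 586 against 1526 CPM, *Slc38a4* at 154 against 322 CPM and *Impact*, a regulator of translation under amino acid shortage, at 125 against 260.4 CPM. *Peg13*, *Magel2* and *Peg12* made up the 18, with log2 ratios between -1.15 and -1.04. *Kcnq1ot1*, the noncoding RNA that silences the *Kcnq1* locus on the paternal copy, was at 500.3 CPM (491 to 510.1) in WT and 501 CPM (492 to 510.4) in dCD. Within clusters of R1 cells it was at 504 against 563 CPM in dCD against WT in cluster 0 and 1.55-fold (1.42 to 1.68) higher in dCD in cluster 5, at 494 against 319 CPM.

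**Figure D4:**
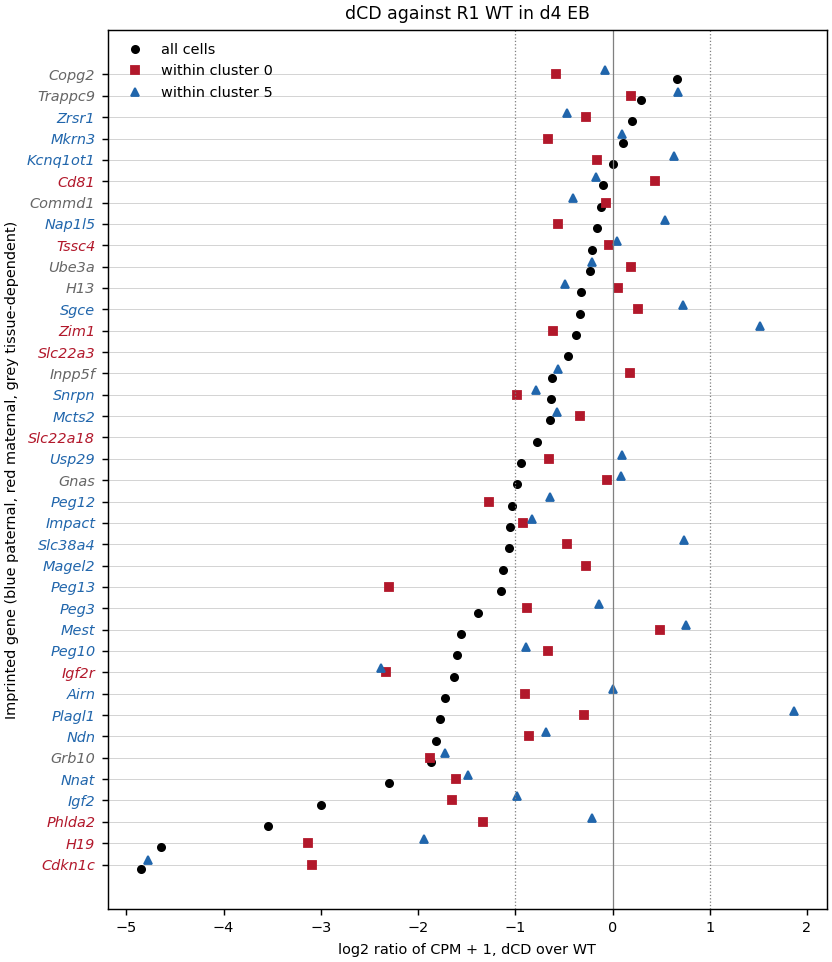
Log2 ratio of CPM + 1 for each imprinted gene between dCD and WT d4 EB of the R1 line, over all cells (circles), within cluster 0 (squares) and within cluster 5 (triangles). Dotted lines mark a 2-fold difference; *Cdkn1c*, *H19*, *Igf2r*, *Nnat* and *Grb10* lie past it on the lower side in all 3, while *Mest* and *Plagl1* are below 0 over all cells and above 0 within cluster 5.

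Only 2 of the 10 R1 clusters held over 100 cells of each line. Cluster 0, led by *Ctla2a*, *Cdh5* and *Hapln1*, held 548 WT and 121 dCD cells, and 9 of 36 genes were lower in dCD there and none higher, against 4.84% and 4.96% of all genes. Cluster 5, with *Vgll3* and *Ccl2* among its leading genes, held 151 WT and 113 dCD cells, and 5 of 34 genes were lower and 2 higher, against 3.31% and 7.83%. The median log2 ratios of the imprinted genes were -0.60 and -0.21. *Cdkn1c* was 8.71-fold (6.63 to 11.7) lower in cluster 0, at 34.9 against 304 CPM, and 31.9-fold (18.8 to 58.7) lower in cluster 5, at 5.77 against 184 CPM. *H19* was 8.86-fold (7.4 to 10.7) lower in cluster 0, at 80.3 against 711 CPM, and 3.91-fold (3.17 to 4.86) lower in cluster 5, at 43.7 against 171 CPM. *Igf2r* was 5.14-fold (3.86 to 6.99) and 5.49-fold (3.89 to 7.97) lower, *Nnat* 3.05-fold (2.69 to 3.47) and 2.82-fold (2.59 to 3.07), and *Grb10* 4.68-fold (1.76 to 17.6) and 4.70-fold (1.62 to 18.6). These 5 genes were lower in both clusters. *Igf2* was 3.14-fold (2.87 to 3.44) lower in cluster 0, at 340.3 against 1068 CPM, and *Phlda2* 2.56-fold (2.02 to 3.29) lower, at 48.7 against 125 CPM. In cluster 5 *Igf2* was at 422 against 836 CPM and *Phlda2* at 33 against 38.5 CPM, neither past 2-fold. *Peg12* was at 5.92 against 15.7 CPM in cluster 0, and *Peg13* had no UMI in the dCD cells of cluster 0, at least 1.98-fold lower. In cluster 5 *Plagl1* was 3.82-fold (2.73 to 5.42) higher in dCD, at 56.9 against 14.9 CPM, and *Zim1* was at 4.54 against 0.931 CPM, with 3 UMIs in WT. *Mest* was at 1457 against 1038 CPM in cluster 0 and 841 against 496 CPM in cluster 5, so its lower level over all cells was not seen within either. The clusters were drawn from all genes but the members, and WT and dCD cells of 1 cluster still come from 1 library each.

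**Figure D5:**
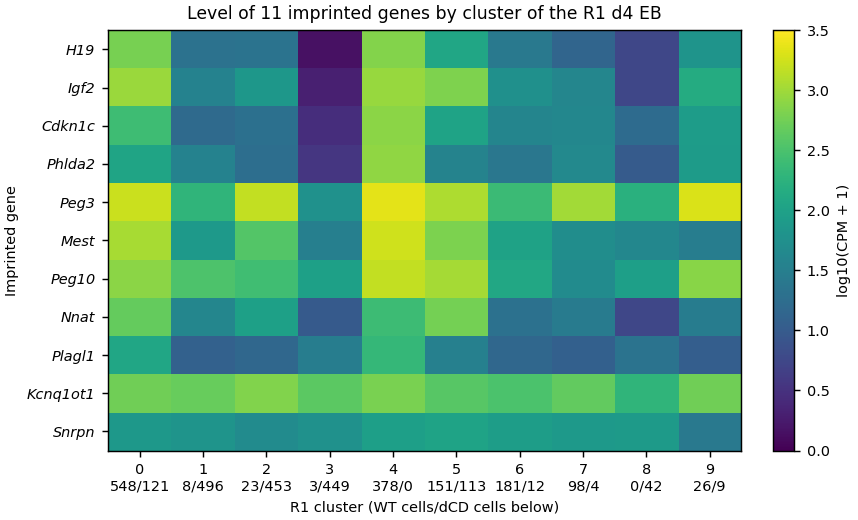
Level of 11 imprinted genes (rows) in the 10 clusters of the R1 d4 EB (columns, with the WT and dCD cells of each below), as log10(CPM + 1) on the colour scale. *H19*, *Igf2* and *Cdkn1c* are highest in clusters 0 and 4 and lowest in cluster 3, while *Kcnq1ot1* and *Snrpn* span narrower ranges.

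In R1, 2 clusters stood out for the PGC markers, whose sum over all cells was 464 CPM in cluster 6 and 479 in cluster 7. Cluster 6 held 181 WT and 12 dCD cells and was led by *BC048679*, *Nanos3* and *Dppa3*. Cluster 7 held 98 WT and 4 dCD cells and was led by *Lefty1*, *Igfbpl1* and *Fgf8*. The WT cells of cluster 6 were set against the other WT cells, cluster 7 included, after their values had been seen. Of 37 genes 23 were lower there and none higher, where over all genes 24.2% were lower and 9.37% higher, with medians of -1.65 and -0.29 (-1.62 with *Peg13*, which had no UMI there, at its bound). Without cluster 7 among the other cells 24 were lower and none higher, and the shares of all genes were not computed for that set. By copy, 14 of 21 paternal, 5 of 8 maternal and 4 of 8 tissue-dependent genes were lower. *Airn* was 27.9-fold (15.1 to 58.3) lower, at 3.37 against 94.1 CPM, and *Nnat* 26-fold (19.7 to 35.1) lower, at 16.9 against 439 CPM. *H19* was 19.7-fold (15.8 to 24.9) and *Igf2* 14.6-fold (12.5 to 17) lower, at 26.6 and 58.7 CPM in the cluster. *Phlda2* and *Cdkn1c* were 12.2-fold (9.66 to 15.5) and 9.21-fold (7.71 to 11.1) lower. *Gnas* was 12.4-fold (11 to 14), *Mest* 11.9-fold (10.5 to 13.5), *Usp29* 8.90-fold (5.36 to 16), *Plagl1* 8.21-fold (6.03 to 11.5), *Peg10* 8.15-fold (7.36 to 9.05) and *Peg3* 7.44-fold (6.90 to 8.03) lower. The 9 extraembryonic mesoderm markers summed to 155 CPM in the WT cells of cluster 6 and 1645 in the other WT cells. The 8 naive pluripotency markers summed to 1786 and 355 CPM there, and the 5 pluripotency markers to 2465 and 176. The part of these cell states in the differences was not tested. In the WT cells of cluster 7 *Igf2* was at 40.6 and *H19* at 13.5 CPM, both below their levels in cluster 6, while *Peg3* was at 982 CPM, against 234 in cluster 6. In the WT cells of cluster 6 against the other WT cells *Snrpn* was at 86.7 against 91.6 CPM. *Nap1l5*, an intronless chaperone-like gene, was at 0.674 against 4.14 CPM in the same comparison. The remaining genes past 2-fold were *Sgce*, *Grb10*, *Slc38a4*, *Ndn*, *Zim1*, *Peg13*, *H13*, *Nap1l5*, *Igf2r*, *Impact* and *Ube3a*, with log2 ratios between -2.85 and -1.05.

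*H19* and *Igf2* lie on chromosome 7 of GRCm38 at chr7:142575529-142578143 and chr7:142650766-142666816, on the minus strand, and share enhancers that the maternal copy directs to *H19* and the paternal copy to *Igf2*. Their cells with a UMI were unlike. In WT R1 414 of 1416 cells, 29.2% (26.9 to 31.7%), had an *H19* UMI, against 81.7% for *Igf2*, and after thinning each cell to 6831 UMIs the shares were 23.9% and 75.5%. In dCD 29 of 1699 cells, 1.71% (1.15 to 2.44%), had an *H19* UMI and 20.8% an *Igf2* UMI, or 1.44% and 16.9% after thinning. As a background for dCD, R1 cluster 3, led by *Fam25c*, *Ooep* and *Tcl1* with a median of 13897 UMIs per cell, had *H19* in 0.664% (0.137 to 1.93%) of 452 cells. That cluster held 3 WT and 449 dCD cells, and no background share was set beside the WT values. In the other d4 EB cells of E14Tg2a *Igf2* was found in 99.4% and *H19* in 15.7% of cells, 99.7% and 11.6% after thinning to 15374 UMIs. *H19* thus had a UMI in a minority of cells even where nearly every cell had *Igf2*.

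That unevenness was seen over whole groups and inside R1 cluster 4. The variance of thinned *H19* counts over their mean, which is 1 for Poisson counting, was 44.9 in the other d4 EB cells, 23.9 in WT and 26.6 in dCD. These 3 groups mix cell types, which can raise the ratio. Within R1 cluster 4, made of 378 WT cells and led by *Tbx4* and *Pitx1*, 30.7% of cells had *H19* and 97.4% had *Igf2*, with ratios of 23.2 and 2.68. Across 361 WT cells of that cluster Spearman's rho between *H19* and *Igf2* was -0.454, and across 528 WT cells of cluster 0 it was -0.375. In the *Ptn* cluster of the d4 EB it was -0.111 over 224 cells. Cells of a cluster share 1 library and 1 depth after thinning, so these values are descriptions. The median rho over all pairs of members with enough counts was between 0.0245 and 0.0355 in the 4 sets of cells examined.

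At the neighbouring *Kcnq1* locus the maternally expressed *Cdkn1c* (chr7:143458339-143461050, minus strand) and *Phlda2* (chr7:143501545-143503150, minus strand) had a rho of 0.649 in cluster 4, 0.373 in the *Ptn* cluster of d4 EB and 0.324 over 365 cells of the *Pitx1* cluster of d2 EB. *Cdkn1c* and the paternally expressed *Kcnq1ot1* had a rho of -0.189 in cluster 4, -0.168 in cluster 0 and 0.209 in the *Ptn* cluster. *Slc22a18*, between *Cdkn1c* and *Phlda2*, stayed at or below 10.6 CPM in every E14Tg2a group. *Cd81*, a tetraspanin, was at 161 CPM in 2i ESC and 179 in the other d4 EB cells, and *Tssc4*, a gene of splicing particle assembly, between 22.3 and 44.2 CPM in E14Tg2a. The locus thus held genes of very unlike range.

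*Cdkn1c* and *Igf2* each had a UMI in 99.4% of the other d4 EB cells, and in 54.5% and 61.4% of the listed d4 PGCLC. After thinning the PGCLC shares were 39.5% and 50%. No background share was set beside these E14Tg2a values. In R1 *Cdkn1c* was found in 31.8% of WT and 8.65% of dCD cells, 25.6% and 5.43% after thinning. As a background for dCD it was found in 2.65% (1.38 to 4.59%) of the cells of cluster 3. No background was set beside the WT share.

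Other members are given by their levels. *Commd1*, a copper metabolism gene, was between 87.2 and 141 CPM in the E14Tg2a groups and at 109 and 100.1 CPM in WT and dCD. *Ube3a*, a ubiquitin ligase imprinted in neurons, was at 196 and 167 CPM in R1. *Copg2*, a coat protein gene that overlaps *Mest* on the opposite strand, was at 22.2 and 35.6, *Inpp5f*, a phosphoinositide phosphatase, at 30.6 and 19.5, *Zrsr1*, an intronless splicing factor gene inside *Commd1*, at 12.5 and 14.6, and *H13*, a signal peptide peptidase, at 39.1 and 30.9. *Mkrn3*, a ring finger gene, did not exceed 4.59 CPM in any whole library, and *Rasgrf1*, a guanine nucleotide exchange factor best known from brain, reached 0.948 CPM, which is 1 UMI, in the listed d4 PGCLC. *Slc22a3* in R1 was at 0.437 and 0.0437 CPM. How reads over overlapping genes were assigned is not given in the sources used here, so *Airn* and *Igf2r*, *Mest* and *Copg2*, *Peg13* and *Trappc9*, *Mcts2* and *H13*, and *Zrsr1* and *Commd1* may share reads. *Mcts2* may also share them with *Mcts1*, of which it is a copy, and *Snrpn* with *Snurf*, which uses the same exons.

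Of 14 genes that set, keep or remove imprint methylation, none was called between dCD and WT (6.31% of all genes were higher and 3.68% lower). Without the added 1 CPM *Dnmt3l* was 2.07-fold (1.69 to 2.56) and *Tet2* 2.04-fold (1.825 to 2.28) higher in dCD, and none was 2-fold lower. *Zfp57* was at 32.1 CPM in WT and 51.7 in dCD, and *Dnmt1*, the maintenance methyltransferase, at 185 and 192. In the listed PGCLC 5 of the 14 were higher at d2 and none lower (6.06% and 10.3% of all genes), and 6 were higher and 2 lower at d4 (8.64% and 31.3%). *Zfp445*, among the latter, had no UMI in the d4 PGCLC and 1.75 CPM in the other cells, too few for a bound. *Dppa3*, which is also 1 of the markers of PGCs, had log2 ratios of 5.30 and 5.72, and the de novo methylation cofactor *Dnmt3l* 2.62 and 4.09. The demethylating enzymes *Tet1* and *Tet2* were among the higher genes on both days. *Tet1* had 1.35 and 2.56, and *Tet2* 1.10 and 1.61. In WT cluster 6, 8 were higher and none lower (9.37% and 24.2% of all genes), among them *Zfp57* at a log2 ratio of 2.34 and *Trim28*, its corepressor, at 1.09. From 2i ESC to d2 EpiLC 2 were higher and 2 lower (16.0% and 6.49% of all genes): *Dnmt3a* and *Dnmt3b* had log2 ratios of 4.61 and 4.48, while *Zfp57* went from 81.3 to 9.95 CPM and *Tet2* had -3.55. In EpiSC 4 were lower than in d2 EpiLC and none higher (6.13% and 8.47%), with *Dnmt3l* at -4.90.

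Of 11 genes around insulin-like growth factors (receptors, their adaptors *Irs1* and *Irs2*, binding proteins of the factors, and the mRNA-binding *Igf2bp1*, *Igf2bp2* and *Igf2bp3*), the d2 EpiLC had 6 above their 2i ESC level by the same rule and none below, against 16.0% and 6.49% of all genes. In the listed d4 PGCLC 6 were lower than in the other cells and none higher (31.3% and 8.64% of all genes), with the binding proteins *Igfbp5* and *Igfbp4* at log2 ratios of -5.53 and -4.55. The call of *Irs1*, 1 of the 6, rests on the added 1 CPM, since it had no UMI in the PGCLC. At d2, 1 was higher and 3 lower (6.06% and 10.3%). In WT cluster 6, 8 of the 11 were lower and none higher (24.2% and 9.37%), including the receptors *Igf1r* (-1.65) and *Insr* (-1.24). In the other EB cells *Igfbp5* had a log2 ratio of 7.04 between d2 and d4. In dCD *Igfbp2* was higher than in WT (1.76), and *Igfbp4* (-1.85) and *Igfbp5* (-1.07) were lower.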

How the data were processed

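Single-cell RNA-seq libraries (10x Genomics) had been sequenced and aligned to the mouse genome with Cell Ranger by the authors, who deposited 2 tables of whole-number UMI counts per gene and cell, 1 for the 8 E14Tg2a libraries and 1 for the 2 R1 libraries. The E14Tg2a libraries had been aggregated by the authors with Cell Ranger's mapped-read normalization, which subsamples reads to a like depth per cell, so depths before it are not seen in that table. The gene annotation of the tables is not given in the sources used here. For R1 the authors kept cells from 2000 expressed genes upwards, and the lowest number found was 2006. Stages were read from the barcodes of each table and PGCLC from the authors' list of cells. No cell was removed from the main values. Scrublet, run through scanpy 1.11.5, marked 97 E14Tg2a cells (3.49%) and 19 R1 cells (0.610%) as doublets.

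UMIs of all cells in a group were added up and divided by the group's total (CPM, per 1000000). Exact Poisson intervals were computed for levels, exact binomial (Clopper-Pearson) intervals for shares and for ratios conditional on the summed UMIs. Genes with at least 10 UMIs in both groups together were compared on log2(CPM + 1), a scale that understates the differences of low genes, and called at 2-fold. With 1 library per condition there was no test. A UMI count of 0 was given a floor of 3 UMIs. Shares and variances were also computed after thinning each cell to 15374 (E14Tg2a) or 6831 UMIs (R1), leaving out shallower cells. d2 and d4 EB were clustered by k-means (k of 3 and 4, 20 principal components) and R1 cells with Seurat 5.3.0 (10 components, resolution 0.3), on 2000 variable genes without the members. Python 3.11.15, numpy 2.4.6, scipy 1.17.1, scikit-learn 1.9.0 and R 4.3.3 were used, and the calculation was tested on simulated data. Members with at least 50 UMIs and a 2-fold difference were named with values, at most 12 per comparison, and every member at least 1 time. Members and lists were chosen with earlier results of these data known. Positions are from GENCODE M21 (GRCm38).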

Additional observations from a re-analysis of the deposited data

How the results depend on the processing

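No paired analysis was possible because each condition had 1 library, and leaving out a replicate was likewise not possible. Of 203 alternative values of the counts, 169 stayed within 1.5 times the main count and 34 did not. Of 786 values of single genes 733 moved by less than the counting error, 51 by more, and 2 reversed. Among the 733 are 117 values with no minimum of UMIs and 117 with a minimum of 50. These 2 settings cannot change a gene's ratio, so they say nothing of its stability. With the mean over shared clusters 1 value for dCD stayed, 9 moved and 2 reversed. With a call at 1.5-fold, d2 EpiLC against 2i ESC gave 15 higher (main 9) and 3 lower (1), EpiSC 2 lower (0), S+L ESC 10 higher (6) and 1 lower (0), d2 PGCLC against other cells 3 higher (1), d2 PGCLC against EpiLC 4 lower (2), d4 against d2 PGCLC 3 higher (0), other d2 EB cells against EpiLC 2 lower (1), other d4 against d2 EB cells 21 higher (13), and dCD 1 higher (0). With a call at 3-fold, d2 EpiLC gave 5 higher and 0 lower, EpiSC 6 higher (11), d2 PGCLC against other cells 0 higher and 8 lower (13), d4 PGCLC 0 higher (1), d2 PGCLC against EpiLC 7 higher (11) and 1 lower, d4 against d2 PGCLC 3 lower (9), and dCD 11 lower (18). Scaling by the median ratio of genes gave 2 lower in d2 EpiLC. Without doublets d2 EpiLC had 0 lower, and d4 against d2 PGCLC 1 higher. A pseudocount of 0.1 gave 1 lower in S+L ESC and 2 lower in other d2 EB cells. A minimum of 50 UMIs left 0 higher in d2 PGCLC against other cells, while the mean over cells, and leaving out the cluster with the highest extraembryonic ectoderm markers, gave 2. Equal weight on shared clusters gave 7 lower in dCD, and reversed *Plagl1* (0.79, main -1.77) and *Mest* (0.62, main -1.56). The genes with a UMI in at least 50% of cells fell after thinning to 7 (main 11) for 2i ESC, 8 (14) for d3 EpiLC, 9 (14) for the first EpiLC day and 9 (16) for EpiSC. Apart from these clusters the cause of the shifts was not tested. The comparison of R1 WT cluster 6 and its alternatives were chosen after seeing the data. Genes with few UMIs, such as *Airn*, *H19* and *Plagl1* in PGCLC, are limited by depth.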
